A study of Mus musculus with 16 samples.

Results

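The voltage-gated sodium channel subunit genes Scn4b, Scn2b, Scn3b, Scn1a, Scn2a, Scn3a and Scn8a were followed in mouse retina after crush of the optic nerve. They were taken by symbol from the 3 deposited tables of all genes, and all 7 were found among the 19495 genes that stand in each table and passed the filter on low values. Retinas of C57BL/6 mice aged around 6 weeks formed 4 groups, of 3 GFP, 4 HDAC5AA, 4 HDAC5DAD and 4 Uninjured libraries. The 3 crushed groups were named for what an adeno-associated virus (AAV2), injected into the vitreous to reach retinal ganglion cells, made them express: GFP, a fluorescent protein, or HDAC5AA or HDAC5DAD, forms of the histone deacetylase HDAC5 whose changes the labels leave unnamed. The nerve was crushed 2 weeks after the injection, for 3 seconds at around 1 mm behind the optic disc, and the tissue was collected 4 days after the crush. For Uninjured retina the labels name neither a virus nor a crush, so what the virus did and what the crush did cannot be told apart in comparisons with it. The RNA came from whole retina, in which ganglion cells are few, and a change in a subunit cannot be assigned to fewer cells of a type or to less RNA per cell.

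A voltage-gated sodium channel is built from a pore-forming alpha subunit, which opens when the membrane is depolarized, and beta subunits, which are small membrane proteins with an immunoglobulin-like outer domain that set how the channel gates and where it sits. Scn1a, Scn2a, Scn3a and Scn8a encode the alpha subunits of central neurons, and Scn2b, Scn3b and Scn4b encode beta subunits. In retinal ganglion cells these channels gather at the axon initial segment, where the action potential starts, and at the nodes of the myelinated axon in the optic nerve. The products of Scn2b and Scn4b bind the alpha subunit through a disulfide bond, and that of Scn3b binds it without one.

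The genes lie in clusters, and the sequence around a listed start is shown for Scn4b and its neighbour Scn2b. It is also shown for Scn1a and Scn8a, the alpha subunits that moved most and least. Scn2b (ENSMUSG00000070304, chromosome 9, 45117782 to 45130070, plus strand) ends 8324 bases before Scn4b (ENSMUSG00000046480, chromosome 9, 45138395 to 45154152, plus strand). Scn3b (ENSMUSG00000049281) lies on the same chromosome at 40269217 to 40291618. Scn3a (ENSMUSG00000057182, chromosome 2, 65457118 to 65567627, minus strand), Scn2a (ENSMUSG00000075318, 65620771 to 65767447, plus strand) and Scn1a (ENSMUSG00000064329, 66270778 to 66440840, minus strand) follow each other on chromosome 2, with 53143 bases between Scn3a and Scn2a. Scn8a (ENSMUSG00000023033) stands alone on chromosome 15, at 100869858 to 101045938 on the plus strand. All are protein-coding genes, and the coordinates are those of GENCODE M21 on GRCm38.

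The promoter windows below run 5′ to 3′ on the gene's strand, from 250 bases before to 50 bases after a RefSeq start on GRCm38.p6. RefSeq starts can differ from the GENCODE bounds above. By those bounds the Scn8a window lies wholly inside its gene, as do most of the Scn4b window and part of the Scn2b window. Capitals mark a CCAAT box, which reads as its reverse complement in Scn4b.
Scn4b, chr9:45138374-45138673, plus strand: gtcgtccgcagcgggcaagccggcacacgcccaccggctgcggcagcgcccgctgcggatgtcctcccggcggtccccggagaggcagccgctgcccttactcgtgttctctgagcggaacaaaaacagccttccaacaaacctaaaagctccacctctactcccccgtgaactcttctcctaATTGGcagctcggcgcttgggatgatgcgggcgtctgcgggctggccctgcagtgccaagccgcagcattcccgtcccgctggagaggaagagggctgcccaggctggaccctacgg
Scn2b, chr9:45117626-45117925, plus strand: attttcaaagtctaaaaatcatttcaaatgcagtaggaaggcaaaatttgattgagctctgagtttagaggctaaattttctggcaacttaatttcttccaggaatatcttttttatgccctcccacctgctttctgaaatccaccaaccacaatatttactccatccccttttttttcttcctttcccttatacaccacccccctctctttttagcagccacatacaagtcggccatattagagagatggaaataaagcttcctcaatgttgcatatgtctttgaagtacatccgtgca
Scn1a, chr2:66440788-66441087, minus strand: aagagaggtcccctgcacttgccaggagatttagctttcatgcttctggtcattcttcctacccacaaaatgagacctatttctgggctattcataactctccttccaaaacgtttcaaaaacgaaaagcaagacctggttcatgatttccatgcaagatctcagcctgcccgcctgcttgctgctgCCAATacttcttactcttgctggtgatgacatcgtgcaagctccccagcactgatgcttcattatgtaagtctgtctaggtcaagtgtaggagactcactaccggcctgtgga
Scn8a, chr15:100870395-100870694, plus strand: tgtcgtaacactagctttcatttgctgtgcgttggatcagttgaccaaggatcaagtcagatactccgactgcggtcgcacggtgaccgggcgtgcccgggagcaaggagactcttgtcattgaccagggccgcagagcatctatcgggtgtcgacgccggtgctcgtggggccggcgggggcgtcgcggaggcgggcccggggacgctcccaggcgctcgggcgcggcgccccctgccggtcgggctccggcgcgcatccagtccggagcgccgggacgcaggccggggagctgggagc

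The neighbours Scn4b and Scn2b had unlike windows, with 66.3% G or C and 26 CpG pairs in Scn4b and 38.3% and 2 in Scn2b. The Scn8a window shown held 70.0% and 38 CpG pairs, that of a second listed Scn8a start held 53.3% and 12, and that of Scn1a held 47.3% and 5. Over 32851 RefSeq promoters of the same length the medians were 52.7% and 7. On both strands, the windows were searched for an AP-1 site (TGANTCA, in 7.81% of all promoters), a CRE (TGACGTCA, in 1.79%), a GC box (GGGCGG, in 35.7%), a TATA box (TATAAA, in 13.6%), a CCAAT box (CCAAT, in 37.4%) and a POU4F core (CATTAA, in 8.84%). No pair of these motifs shared a match in the 4 windows, where the search found 1 CCAAT box each in Scn4b and Scn1a, and none of the 6 motifs in Scn2b and Scn8a. The second Scn8a start held none either. For Scn2a, which also has a pair of listed starts, the search found a TATA box at the downstream start. Scn3a and Scn3b had no entry in the promoter table.

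The libraries held 10939457 (HDAC5AA replicate 4) to 30970658 (Uninjured replicate 3) reads on these genes. Features with ribosomal RNA sequence took 0.0212% to 9.87% of them. In 6 libraries, of which 2 each were HDAC5AA, HDAC5DAD and Uninjured, this share was under 1%. It was at least 1% in 9, which include every GFP library. Levels are given as reads normalized jointly over the 15 libraries, and log2 fold changes are on the log2(value + 1) scale with a standard error (SE) and a limma adjusted p over all 19495 genes. The labels do not state that replicates are separate mice, so each p measures only the spread between these libraries, which may be technical. Markers of the retina were present throughout: the summed level of 5 rod genes was 1068014 to 1204468 in GFP, 1170914 to 1266489 in HDAC5AA, 1076051 to 1257507 in HDAC5DAD and 1239645 to 1357305 in Uninjured.

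Against Uninjured, subunits of both classes were lower in all 3 crushed groups, by amounts that ran from a near loss of Scn4b to a change in Scn8a that the limma fit did not call. Of the 7 genes, 6 fell in GFP, 5 in HDAC5AA and 6 in HDAC5DAD, and none rose. The members, and the gene lists further below, were chosen with earlier results of these data known. Their counts and medians beside those of all genes are therefore a description and not a test of the set. Over all genes, 5.87% were called lower in GFP, 3.25% in HDAC5AA and 5.76% in HDAC5DAD, and 5.64%, 5.52% and 7.87% higher. The members' median log2 fold change was -0.64 in GFP, -0.57 in HDAC5AA and -0.58 in HDAC5DAD, beside medians of 0.01, -0.01 and -0.01 over all genes. The 3 comparisons share the 4 Uninjured libraries and are not independent. All crushed libraries lay below all Uninjured libraries for 6 of the 7 genes in GFP, 6 in HDAC5AA and 7 in HDAC5DAD, where such a separation was seen in 11.2%, 5.56% and 7.14% of all genes. The authors' deposited lists of lower genes, which hold genes with their adjusted p under 0.1, contain Scn1a, Scn2a, Scn2b, Scn3a, Scn3b and Scn4b for each crushed group, and Scn8a for HDAC5DAD only.

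**Figure D1:**
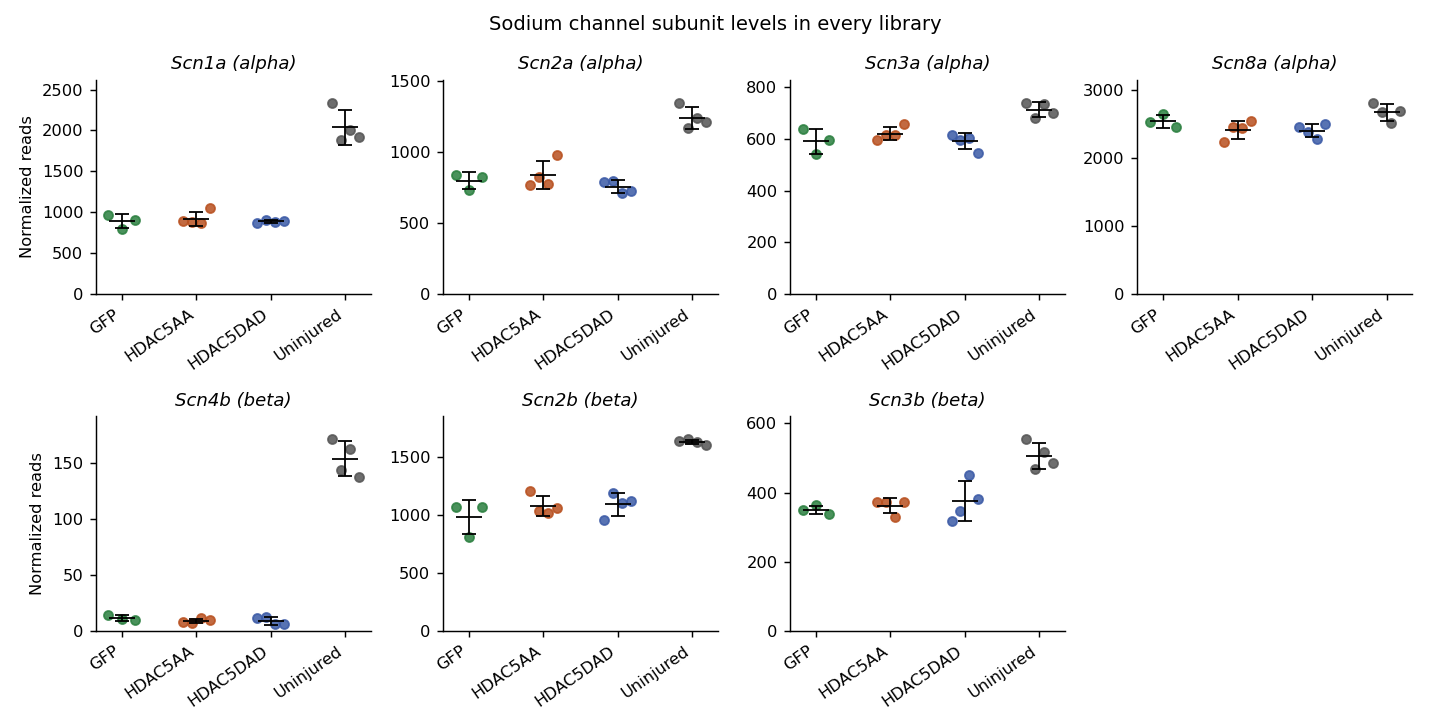
Normalized reads (vertical axes, linear, from 0) of 4 alpha subunit genes (top row) and 3 beta subunit genes (bottom row) in every library of the 4 groups; points are libraries, and the horizontal line and bar are the mean and SD. Scn4b lies at 6.08 to 14.1 in all 11 crushed libraries and at 138 to 172 in the Uninjured libraries, while for Scn8a GFP and HDAC5AA overlap Uninjured and HDAC5DAD lies just below it.

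Scn4b, whose product can also supply the blocking particle behind resurgent sodium current, had 14.1, 10.6 and 9.70 normalized reads in GFP replicates 2 to 4. The HDAC5AA libraries held 8.23, 7.10, 11.1 and 9.73, the HDAC5DAD libraries 11.4, 12.7, 6.08 and 6.14, and the Uninjured libraries 172, 145, 163 and 138. All crushed libraries were far below all Uninjured ones, and the 3 crushed groups overlapped one another. The log2 fold change against Uninjured was -3.65 (SE 0.26, limma adjusted p = 2.11e-10) in GFP, -3.96 (SE 0.24, limma adjusted p = 7.66e-12) in HDAC5AA and -4.01 (SE 0.24, limma adjusted p = 6.28e-12) in HDAC5DAD. The mean normalized reads were 7.43%, 5.86% and 5.88% of the Uninjured mean in GFP, HDAC5AA and HDAC5DAD. Scn4b had the lowest fold change of all 19495 genes in GFP and the next to lowest in HDAC5AA and HDAC5DAD. The crushed libraries held 5 to 17 reads of it before normalization and the Uninjured libraries 133 to 266, so counting error weighs on differences among the crushed groups.

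Scn2b, the next gene along the chromosome and the other disulfide-linked beta subunit, fell less. It had 1069, 812 and 1067 normalized reads in GFP libraries, 1212, 1034, 1022 and 1062 in HDAC5AA libraries and 959, 1195, 1105 and 1122 in HDAC5DAD libraries. The Uninjured libraries held 1638, 1655, 1635 and 1606. The Uninjured libraries stood close together, above all crushed ones, and the lowest value was that of GFP replicate 3. The log2 fold changes were -0.74 (SE 0.09, limma adjusted p = 1.44e-06) in GFP, -0.60 (SE 0.08, limma adjusted p = 9.76e-06) in HDAC5AA and -0.58 (SE 0.08, limma adjusted p = 9.35e-06) in HDAC5DAD. The log2 ratio of Scn4b to Scn2b within a library, taken on value + 1, which weighs on values as low as those of Scn4b, averaged -6.31 ± 0.29 in GFP, -6.77 ± 0.31 in HDAC5AA, -6.83 ± 0.54 in HDAC5DAD and -3.40 ± 0.14 in Uninjured (SD, n = 3, 4, 4 and 4). The crushed libraries did not overlap the Uninjured ones in this ratio.

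Scn3b, which encodes the non-covalently bound beta3 subunit, had 349, 363 and 339 normalized reads in GFP libraries, 374, 373, 331 and 372 in HDAC5AA libraries and 317, 346, 452 and 383 in HDAC5DAD libraries. The Uninjured libraries held 554, 469, 518 and 486. HDAC5DAD was the most spread of the groups, and its replicate 3 came nearest to the Uninjured libraries. The log2 fold changes were -0.53 (SE 0.09, limma adjusted p = 0.000281) in GFP, -0.48 (SE 0.09, limma adjusted p = 0.000354) in HDAC5AA and -0.44 (SE 0.09, limma adjusted p = 0.000613) in HDAC5DAD. Among the libraries with under 1% ribosomal RNA reads, 2 per group, they were -0.39 (adjusted p = 0.137) in HDAC5AA and -0.31 (adjusted p = 0.186) in HDAC5DAD, and no longer passed. Among those with at least 1% they were -0.57, -0.57 and -0.57 in GFP, HDAC5AA and HDAC5DAD, and passed.

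Among the alpha subunits, Scn1a (Nav1.1, found in the proximal initial segment of ganglion cell axons) was the lowest relative to Uninjured. It had 964, 795 and 904 normalized reads in GFP libraries, 889, 876, 872 and 1049 in HDAC5AA libraries and 871, 909, 882 and 893 in HDAC5DAD libraries. The Uninjured libraries held 2339, 1878, 2010.3 and 1917. No crushed library came near the Uninjured range, and HDAC5DAD libraries differed little from each other. The log2 fold changes were -1.20 (SE 0.08, limma adjusted p = 3.49e-11) in GFP, -1.14 (SE 0.07, limma adjusted p = 1.39e-11) in HDAC5AA and -1.19 (SE 0.07, limma adjusted p = 6.34e-12) in HDAC5DAD, or 43.7%, 45.3% and 43.8% of the Uninjured level on the scale of the fit. By fold change it stood at place 69 of 19495 from the lowest in GFP, 76 in HDAC5AA and 68 in HDAC5DAD.

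Scn2a (Nav1.2, the channel of unmyelinated axons, such as those that run inside the retina) had 836, 728 and 823 normalized reads in GFP libraries, 768, 826, 776 and 975 in HDAC5AA libraries and 787, 798, 711 and 723 in HDAC5DAD libraries. The Uninjured libraries held 1345, 1164, 1240.1 and 1206. All crushed libraries were below all Uninjured ones, and HDAC5AA replicate 4 was the highest of them. The log2 fold changes were -0.64 (SE 0.08, limma adjusted p = 1.54e-06) in GFP, -0.57 (SE 0.07, limma adjusted p = 2.43e-06) in HDAC5AA and -0.71 (SE 0.07, limma adjusted p = 4.93e-08) in HDAC5DAD.

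Scn3a (Nav1.3, a channel that is abundant in the embryonic nervous system) had 638, 539 and 594 normalized reads in GFP libraries, 597, 616, 613 and 656 in HDAC5AA libraries and 614, 597, 605 and 545 in HDAC5DAD libraries. The Uninjured libraries held 739, 679, 734 and 698. The groups were apart, but by less than for the other lower subunits. It fell in GFP (log2 fold change -0.27, SE 0.07, limma adjusted p = 0.00814) and in HDAC5DAD (-0.27, SE 0.06, limma adjusted p = 0.00344), while the HDAC5AA value of -0.20 (SE 0.06) just missed the threshold of 0.05 with limma adjusted p = 0.0506. These calls were not firm. Without GFP replicate 3 the GFP value was -0.21 with adjusted p = 0.0941. Without HDAC5AA replicate 4 or Uninjured replicate 2 the HDAC5AA value was -0.23 or -0.22 and passed, with adjusted p = 0.0384 or 0.0466, and edgeR and DESeq2 called it too (adjusted p = 0.0284 and 0.0334). Among the libraries with under 1% ribosomal RNA reads the HDAC5DAD value was -0.23 with adjusted p = 0.167.

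Scn8a (Nav1.6, the main channel of mature nodes and of the distal initial segment) was the alpha subunit with the smallest difference. It had 2536, 2644 and 2455 normalized reads in GFP libraries, 2234, 2460.4, 2444 and 2543 in HDAC5AA libraries and 2459.9, 2379.5, 2283 and 2503 in HDAC5DAD libraries. The Uninjured libraries held 2816, 2673, 2517 and 2691. GFP and HDAC5AA libraries overlapped the Uninjured ones, and HDAC5DAD libraries lay just below them. The log2 fold changes were -0.07 (95% interval -0.19 to 0.04, limma adjusted p = 0.508) in GFP, -0.14 (-0.25 to -0.04, limma adjusted p = 0.0933) in HDAC5AA and -0.15 (-0.26 to -0.05, limma adjusted p = 0.0520) in HDAC5DAD. The HDAC5DAD value passed in edgeR (adjusted p = 0.0269) and DESeq2 (adjusted p = 0.0337), and without Uninjured replicate 3 (-0.18, adjusted p = 0.0299).

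**Figure D2:**
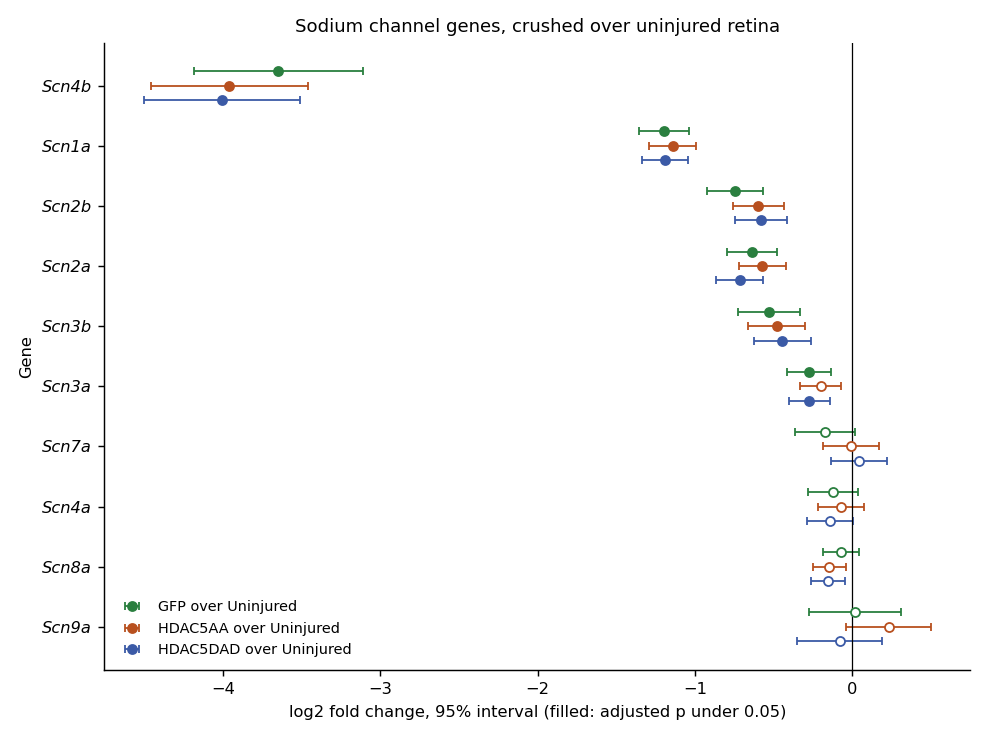
Log2 fold change (horizontal axis, on the log2(value + 1) scale) with its 95% interval for 10 sodium channel genes (rows) in GFP, HDAC5AA and HDAC5DAD over Uninjured; filled points had a limma adjusted p under 0.05. Scn4b stands apart at -3.65 to -4.01, Scn1a follows at -1.14 to -1.20, and Scn8a is open in all 3 comparisons.

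Per kilobase of exon, which allows levels of different genes to be compared, the order in Uninjured retina was Scn2b (351 ± 4.41 normalized reads per kilobase), Scn1a (183 ± 18.8), Scn8a (170 ± 7.77), Scn2a (97.3 ± 6.06), Scn3b (92.7 ± 6.89), Scn3a (57.2 ± 2.32) and Scn4b (31.0 ± 3.15; SD, n = 4 each). The neighbours Scn1a and Scn8a overlapped between libraries, as did Scn2a and Scn3b. In the crushed groups Scn8a was the highest alpha subunit, with 161 ± 6.01 per kilobase in GFP, 154 ± 8.35 in HDAC5AA and 153 ± 6.14 in HDAC5DAD. Scn1a held 79.6 ± 7.67, 82.7 ± 7.63 and 79.7 ± 1.44 in the same groups, with no overlap with Scn8a in any of them. The order of some genes depended on the length used: per kilobase of coding sequence, Scn8a (435) stood above Scn1a (334) in Uninjured retina. By coding length Scn3b (785) stood above Scn8a, Scn1a and Scn2a (203), and Scn4b (226) stood above Scn2a.

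**Figure D3:**
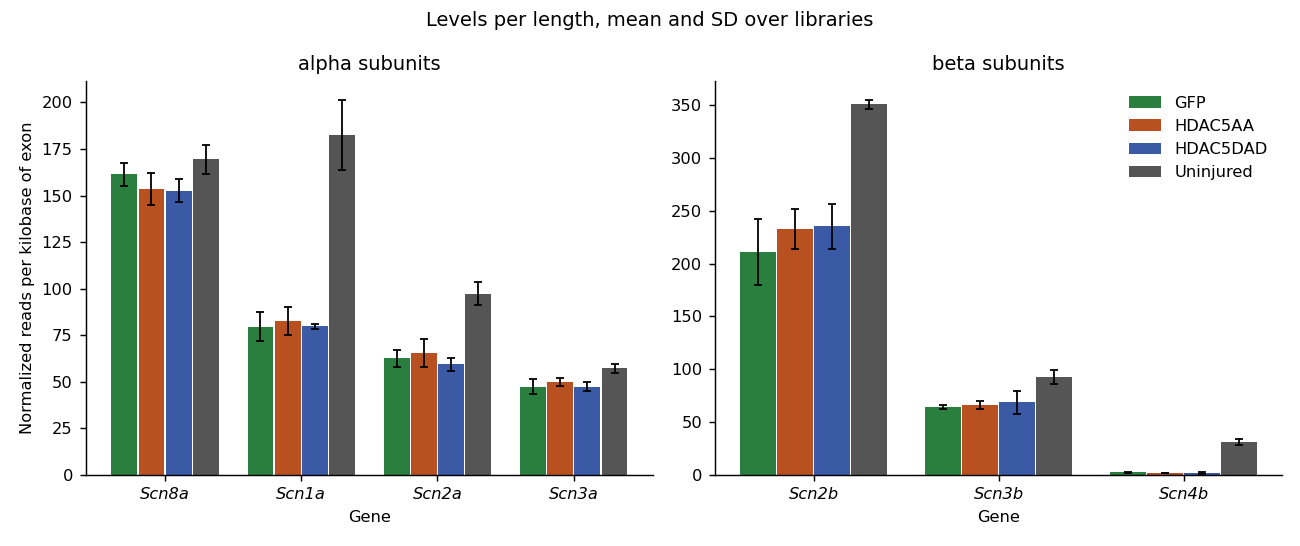
Mean normalized reads per kilobase of exon (vertical axes, linear, from 0) with SD over libraries for 4 alpha (left) and 3 beta (right) subunit genes in GFP, HDAC5AA, HDAC5DAD and Uninjured. By exon length, Scn8a and Scn1a overlap in Uninjured (170 and 183), and in the crushed groups Scn8a (153 to 161) exceeds Scn1a (79.6 to 82.7).

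The makeup of the alpha transcripts differed between crushed and Uninjured retina. The summed level of the 4 alpha genes was 351 ± 12.4 per kilobase of exon in GFP, 352 ± 23.4 in HDAC5AA, 339 ± 7.55 in HDAC5DAD and 507 ± 31.5 in Uninjured (SD). Of this sum, Scn8a made up 46.1% ± 2.90 in GFP, 43.7% ± 1.498 in HDAC5AA, 45.0% ± 1.29 in HDAC5DAD and 33.5% ± 1.51 in Uninjured. Scn1a made up 22.7% ± 1.45, 23.5% ± 0.98 and 23.5% ± 0.63 in GFP, HDAC5AA and HDAC5DAD, and 36.0% ± 1.47 in Uninjured. The share of Scn2a was 17.8%, 18.6% and 17.5% in GFP, HDAC5AA and HDAC5DAD and 19.2% in Uninjured, and that of Scn3a was 13.5%, 14.2% and 13.97% in the same crushed groups and 11.3% in Uninjured. These shares are given as a description, without a test. They rest on exon length: per kilobase of coding sequence, Scn8a (435) already stood above Scn1a (334) in Uninjured.

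Ratios within a library showed the same separation. The log2 ratio of Scn8a to Scn2a was 1.68 ± 0.16 in GFP, 1.54 ± 0.11 in HDAC5AA, 1.67 ± 0.09 in HDAC5DAD and 1.11 ± 0.08 in Uninjured, and that of Scn3a to Scn1a was -0.59 ± 0.02, -0.57 ± 0.08 and -0.59 ± 0.09 in GFP, HDAC5AA and HDAC5DAD and -1.51 ± 0.10 in Uninjured (SD). In neither ratio did a crushed library overlap an Uninjured one. Per kilobase of exon, Scn4b averaged 2.30 in GFP, 1.81 in HDAC5AA, 1.82 in HDAC5DAD and 31.0 in Uninjured.

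Between the crushed groups, no difference was detected in any of the 7 genes. In HDAC5AA against GFP and in HDAC5DAD against GFP limma called 0 of all 19495 genes (0%), and 1284 (6.59%) and 2238 (11.5%) had an unadjusted p under 0.05. By edgeR these counts were 0 and 0, and by DESeq2 0 and 57. In HDAC5AA against HDAC5DAD limma called 2 genes (0.0103%), neither of them a sodium channel gene, and 6.78% of genes had an unadjusted p under 0.05. The count of 2 ran from 0 to 5 when 1 library was left out. Of the 7 members none had an unadjusted p under 0.05 in these comparisons, none was called by edgeR or DESeq2, and their libraries overlapped between each pair of crushed groups. Over all genes, libraries did not overlap for 7.9% in HDAC5AA against GFP, 10.9% in HDAC5DAD against GFP and 3.21% in HDAC5AA against HDAC5DAD.

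The intervals show what these comparisons could have missed. For Scn1a the log2 fold change was 0.05 (95% interval -0.11 to 0.21) in HDAC5AA against GFP, 0.01 (-0.15 to 0.17) in HDAC5DAD against GFP and 0.05 (-0.10 to 0.20) in HDAC5AA against HDAC5DAD. Scn2b had the largest positive values against GFP, of 0.15 (-0.03 to 0.32, limma adjusted p = 0.780) in HDAC5AA and 0.16 (-0.01 to 0.34, limma adjusted p = 0.465) in HDAC5DAD. For Scn2a the HDAC5AA to HDAC5DAD difference was 0.14 (-0.01 to 0.29, limma adjusted p = 0.750). Scn4b, with 5 to 17 reads per crushed library, was the least precise member. Its value was -0.31 (-0.85 to 0.23) in HDAC5AA against GFP and -0.36 (-0.90 to 0.18) in HDAC5DAD against GFP. In HDAC5AA against HDAC5DAD it was 0.04 (-0.45 to 0.54). Differences of Scn4b within these intervals are not excluded. Scn3a, Scn3b and Scn8a differed between crushed groups by log2 fold changes of -0.08 to 0.08, none of which passed. The authors' deposited list of 57 genes unique to HDAC5AA holds no sodium channel gene.

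**Figure D4:**
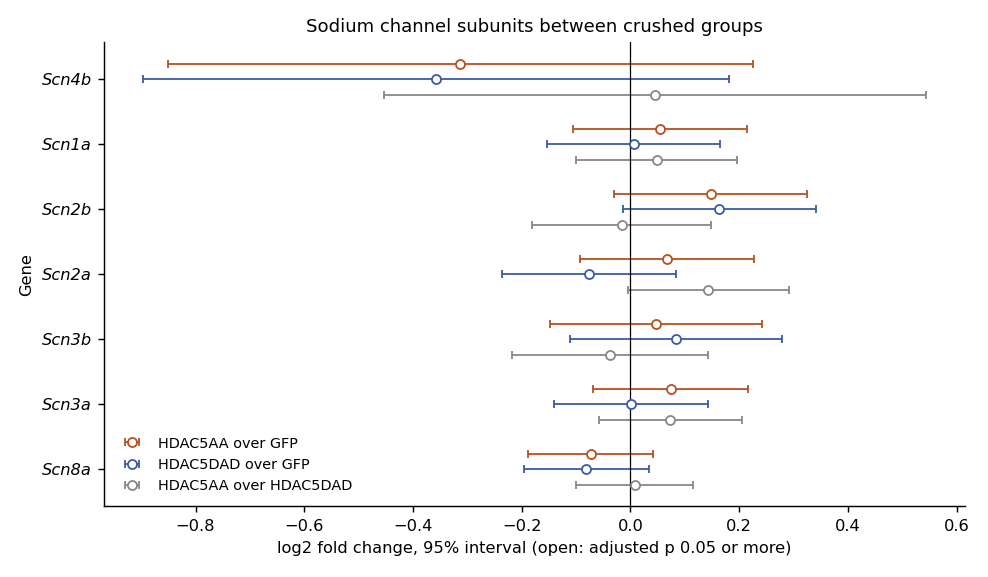
Log2 fold change (horizontal axis, on the log2(value + 1) scale) with its 95% interval for the 7 subunit genes (rows) in HDAC5AA over GFP, HDAC5DAD over GFP and HDAC5AA over HDAC5DAD; open points had an adjusted p of 0.05 or more. All points are open and all intervals include 0, with the widest intervals for Scn4b.

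The channel genes Scn4a, Scn7a and Scn9a were measured and not called in any comparison with Uninjured by limma, edgeR or DESeq2, and 0 of the 3 had an unadjusted p under 0.05. Scn4a, the alpha subunit of skeletal muscle, averaged 514 ± 28.0 normalized reads in GFP, 533 ± 35.1 in HDAC5AA, 508 ± 23.5 in HDAC5DAD and 559.9 ± 49.2 in Uninjured (SD). Scn7a, an atypical sodium channel that senses extracellular sodium, averaged 437 ± 9.84, 494 ± 65.6 and 510.2 ± 54.5 in GFP, HDAC5AA and HDAC5DAD and 494 ± 40.1 in Uninjured. Its GFP libraries lay below all Uninjured and all HDAC5DAD libraries without overlap, and neither difference was called. Over all genes, 11.2% were lower without overlap in GFP against Uninjured. In HDAC5DAD against GFP, 10.9% did not overlap in either direction. In that comparison 1 of the 3 genes had an unadjusted p under 0.05, beside 11.5% of all genes. Scn9a, known from sensory neurons, lay at 103 to 185 in the crushed libraries and at 106 to 134 in the Uninjured ones. Scn9a shares 180 exon bases with the antisense gene Gm13629, and whether the counting used strand is not given in the sources used here. Of the peripheral channel genes, Scn11a stood in the GFP table only, with 6 reads in each GFP library and 3 to 11 in the Uninjured libraries. Scn10a was found by symbol in none of the 3 deposited tables.

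Genes whose products work with sodium channels in the axon were counted next. Each count of lower genes below stands beside 5.87% of all genes called lower in GFP, 3.25% in HDAC5AA and 5.76% in HDAC5DAD. Of the fibroblast growth factor homologous factors (Fgf11 to Fgf14), cytoplasmic proteins that bind the channel's tail, 3 of 4 fell in GFP, 2 in HDAC5AA and 3 in HDAC5DAD. Fgf12 averaged 525 ± 30.2 normalized reads in GFP, 569 ± 24.3 in HDAC5AA, 510.0 ± 62.6 in HDAC5DAD and 882 ± 28.8 in Uninjured, with log2 fold changes of -0.75 (limma adjusted p = 2.20e-07), -0.63 (limma adjusted p = 8.10e-07) and -0.80 (limma adjusted p = 1.14e-08). Fgf11 fell by 0.47, 0.34 and 0.30 on the log2 scale in GFP, HDAC5AA and HDAC5DAD. Fgf13 had -0.39 (limma adjusted p = 0.00851), -0.21 (limma adjusted p = 0.214) and -0.27 (limma adjusted p = 0.0480). Its GFP call was lost without GFP replicate 3 (-0.35, adjusted p = 0.0588), and its HDAC5DAD call without any 1 of HDAC5DAD replicates 1 and 4 and Uninjured replicates 1, 2 and 3 (adjusted p = 0.0631 to 0.208).

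Of 10 genes of the initial segment and node scaffold, 4 fell in GFP (5.87% of all genes), 2 in HDAC5AA (3.25%) and 3 in HDAC5DAD (5.76%). Cntnap1, the paranodal partner that seals the myelin loop to the axon, was at 805 ± 64.3 in GFP, 801 ± 42.8 in HDAC5AA, 735 ± 69.7 in HDAC5DAD and 1172 ± 108 normalized reads in Uninjured, with log2 fold changes of -0.54, -0.55 and -0.67. Sptbn4, the beta4 spectrin that ties sodium channels to the cytoskeleton, fell by 0.50, 0.36 and 0.55 on the log2 scale in GFP, HDAC5AA and HDAC5DAD. Nrcam, an adhesion molecule of the node, had -0.23, -0.13 and -0.19, of which the GFP and HDAC5DAD values passed (limma adjusted p = 0.00848 and 0.0177). These calls were lost without GFP replicate 3 or 4 in GFP (adjusted p = 0.0594 to 0.0633), and without HDAC5DAD replicate 1 or 4 or Uninjured replicate 1 or 2 in HDAC5DAD (adjusted p = 0.0509 to 0.0762). Trim46, which orders microtubules in the proximal axon, passed in GFP only (-0.28, limma adjusted p = 0.0321), and lost its call without any 1 of GFP replicates 2 and 3 and Uninjured replicates 1, 2 and 4 (adjusted p = 0.0575 to 0.160).

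Potassium channel genes of the axon were lower as well: of 5, 3 fell in GFP (5.87% of all genes), 3 in HDAC5AA (3.25%) and 4 in HDAC5DAD (5.76%). Kcna2, a channel of the region beside the node, was at 1462 ± 58.8 in GFP, 1547 ± 159 in HDAC5AA, 1419.6 ± 88.5 in HDAC5DAD and 2256 ± 208 normalized reads in Uninjured, with log2 fold changes of -0.62, -0.55 and -0.67. Kcnq3, a channel of the initial segment, had -0.44 (limma adjusted p = 0.0194), -0.55 (limma adjusted p = 0.00181) and -0.71 (limma adjusted p = 6.64e-05), and its GFP call was lost without any GFP library or Uninjured replicate 1 (adjusted p = 0.0545 to 0.0890). Kcnab2, a cytoplasmic beta subunit of potassium channels, had -0.34, -0.17 and -0.30, and the HDAC5AA call (limma adjusted p = 0.0229) was lost without HDAC5AA replicate 3 or 4 or Uninjured replicate 1 or 2 (adjusted p = 0.0685 to 0.0846). Kcna1, a channel of the region beside the node, had -0.20, -0.08 and -0.24, and the HDAC5DAD value passed (limma adjusted p = 0.0336), but not without any 1 of HDAC5DAD replicates 1, 3 and 4 and Uninjured replicates 1 and 2 (adjusted p = 0.0532 to 0.146).

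Of 5 sodium pump genes, 1 fell in each of the comparisons, and 1 rose in HDAC5DAD. Among all genes, 5.87% fell in GFP, 3.25% in HDAC5AA and 5.76% in HDAC5DAD, and 7.87% rose in HDAC5DAD. Atp1b1, a beta subunit of the pump, was at 2294 ± 101 normalized reads in GFP, 2335 ± 119 in HDAC5AA, 2187 ± 196 in HDAC5DAD and 3255 ± 315 in Uninjured, with log2 fold changes of -0.50, -0.48 and -0.57. Atp1b3, another beta subunit, had 0.19 in HDAC5DAD (limma adjusted p = 0.0407), a call lost without any 1 of HDAC5DAD replicates 2 to 4 and Uninjured replicates 2 to 4 (adjusted p = 0.0529 to 0.204). Of 4 genes of the sodium leak channel, 1 fell in GFP (Nalcn, the pore, -0.32, limma adjusted p = 0.00217), 0 in HDAC5AA and 3 in HDAC5DAD. In HDAC5AA 2 of the 4 had an unadjusted p under 0.05, and edgeR called 0 and DESeq2 0. The share of all genes with such an unadjusted p against Uninjured is not given here, so this count has no background. The HDAC5DAD calls were Nalcn at -0.20, Unc79 at -0.22 and Unc80 at -0.16, of which that of Nalcn was lost without HDAC5DAD replicate 1 or 4 or Uninjured replicate 1 or 2 (adjusted p = 0.0649 to 0.162) and that of Unc80 without any 1 of HDAC5DAD replicates 2 to 4 and Uninjured replicates 2 to 4 (adjusted p = 0.0505 to 0.135).

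Of 13 genes that modify sodium channels or carry them to the membrane, 1 rose in each comparison, a share near that of all genes called higher (5.64% in GFP, 5.52% in HDAC5AA and 7.87% in HDAC5DAD). It was S100a10, whose product p11 brings sodium channels to the surface in sensory neurons, at 366 ± 21.4 normalized reads in GFP, 379.6 ± 52.7 in HDAC5AA, 406 ± 47.1 in HDAC5DAD and 219 ± 12.8 in Uninjured, with log2 fold changes of 0.74, 0.78 and 0.88. Dpysl2, which encodes the microtubule-binding protein CRMP2, fell by 0.45, 0.24 and 0.34 on the log2 scale in GFP, HDAC5AA and HDAC5DAD. Ptprz1, a receptor phosphatase, passed in HDAC5DAD only (-0.23, limma adjusted p = 0.0249), and not without any 1 of HDAC5DAD replicate 2 and Uninjured replicates 1 to 3 (adjusted p = 0.0511 to 0.120). Of 9 genes of the REST repressor complex, which silences neuronal genes such as sodium channels in other tissues, limma called 0 in each of the comparisons with Uninjured, and edgeR and DESeq2 0 as well. Of the 9, 1 in GFP, 0 in HDAC5AA and 1 in HDAC5DAD had an unadjusted p under 0.05. These counts too have no share over all genes beside them.

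**Figure D5:**
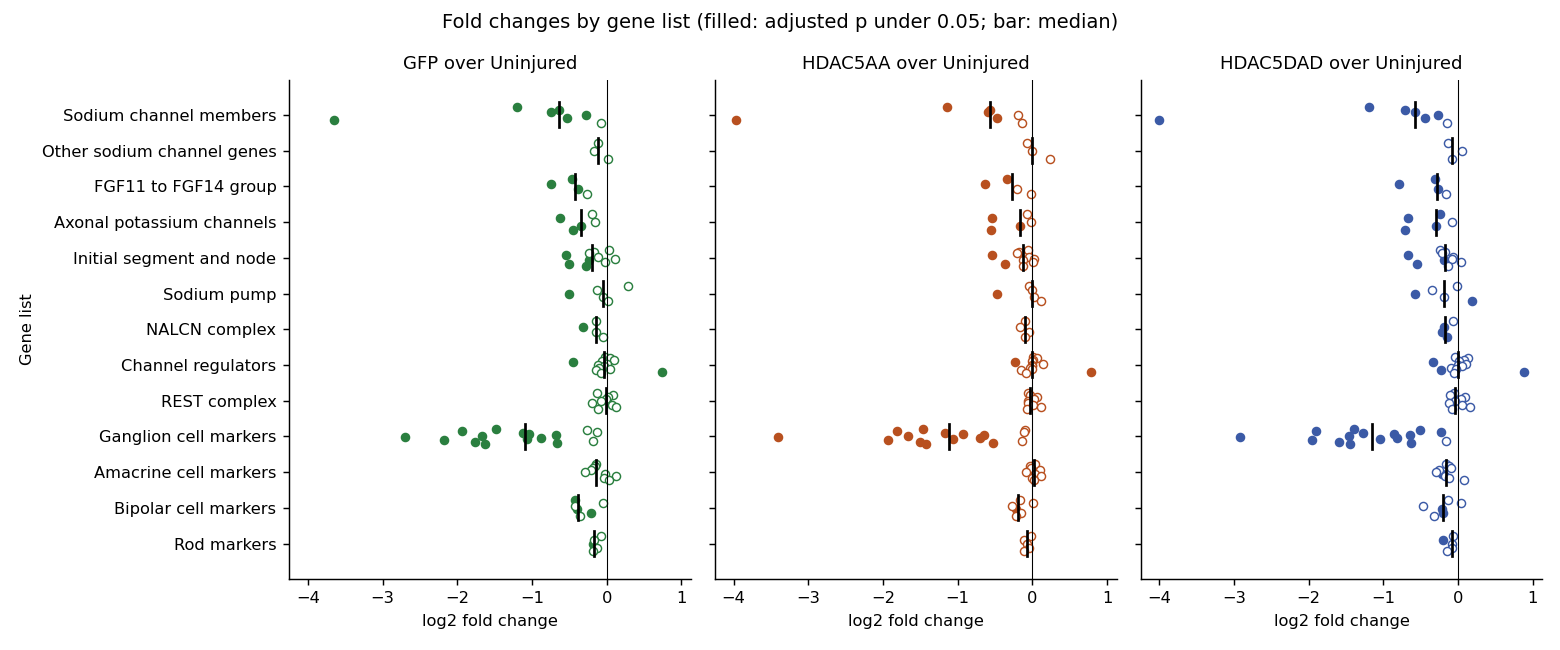
Log2 fold change (horizontal axes, on the log2(value + 1) scale) of each measured gene of 13 lists (rows) in GFP, HDAC5AA and HDAC5DAD over Uninjured; filled points had a limma adjusted p under 0.05 and the black bar is the list's median. The ganglion cell markers have the lowest medians (-1.09 to -1.16), followed by the sodium channel members (-0.57 to -0.64). The lists were chosen with earlier results of these data known.

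Markers of retinal ganglion cells moved with the subunits. Of 16 such genes, 13 fell in GFP (5.87% of all genes), 13 in HDAC5AA (3.25%) and 15 in HDAC5DAD (5.76%), with median log2 fold changes of -1.09, -1.12 and -1.16. Their summed level was 10836 to 12245 normalized reads in GFP, 11768 to 12558 in HDAC5AA, 11203 to 13056 in HDAC5DAD and 21081 to 23655 in Uninjured. In GFP, HDAC5AA and HDAC5DAD the transcription factor gene Pou4f2 fell, with log2 fold changes of -2.70, -3.40 and -2.92. Rbpms2, an RNA-binding protein gene, had -2.18, -1.93 and -1.95, Isl2, a homeobox gene, had -1.94, -1.82 and -1.91, and the gamma-synuclein gene Sncg had -1.76, -1.51 and -1.59, all of which passed. The fold change of Scn4b was below that of all 4, that of Scn1a close to the list's median, and those of the other 5 members nearer to 0. Pou4f2 was imprecise, with an SE of 0.56 in HDAC5AA. Without 1 library its value there ran from -3.86 to -2.69, beside -4.06 to -3.86 for Scn4b. The part of these markers in the subunits' changes was not tested.

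Markers of other retinal neurons, which also use sodium channels, changed less by list median than ganglion cell markers. Among all genes, limma called 5.87% lower in GFP, 3.25% in HDAC5AA and 5.76% in HDAC5DAD, and 5.64%, 5.52% and 7.87% higher. For unadjusted p, edgeR and DESeq2, the shares over all genes against Uninjured are not given here. Counts on those measures in this paragraph thus have no background to be judged by. Of 9 amacrine cell genes, 0 fell in GFP, 0 in HDAC5AA and 1 in HDAC5DAD, with medians of -0.15, 0.02 and -0.16. An unadjusted p under 0.05 was seen for 2, 0 and 3 of them, and edgeR and DESeq2 each called 0, 0 and 1. Their summed level was 9837 to 10647 in GFP, 10353 to 11667 in HDAC5AA, 9431 to 10561 in HDAC5DAD and 10038 to 11779 in Uninjured. The HDAC5DAD call, that of Slc6a9, held when each library was left out in turn (-0.25 to -0.18). Of 6 bipolar cell genes, 3 fell in GFP, 1 in HDAC5AA and 2 in HDAC5DAD, with medians of -0.38, -0.19 and -0.21. Of these 6, 5, 3 and 5 had an unadjusted p under 0.05, edgeR called 3, 1 and 2, and DESeq2 called 4, 1 and 3. Summed levels were 11852 to 12192, 12071 to 13895 and 12151 to 12999, against 13394 to 15163 in Uninjured. In GFP, Cabp5 and Pcp2 kept their calls in each of the 16 alternatives (-0.47 to -0.37 and -0.47 to -0.36 without 1 library). The call of Trpm1, the cation channel of ON bipolar cells, was lost in GFP without any GFP library or Uninjured replicate 1 or 2 (adjusted p = 0.0606 to 0.0739), and in HDAC5DAD without HDAC5DAD replicate 1 or 2 or Uninjured replicate 1 or 2 (adjusted p = 0.0520 to 0.0688). Pcp2, the other call in HDAC5DAD and the only 1 in HDAC5AA, was lost in HDAC5AA without HDAC5AA replicate 4 or Uninjured replicate 1 or 4 (adjusted p = 0.0545 to 0.0939) and in HDAC5DAD without Uninjured replicate 1 (adjusted p = 0.0752). Of 4 horizontal cell genes 1 fell in each comparison (Calb1, a calcium-binding protein), with summed levels of 1155 to 1310 in GFP, 1276 to 1388 in HDAC5AA, 1206 to 1454 in HDAC5DAD and 1502 to 1612 in Uninjured. Glial and immune cells also express some subunits. Microglia genes rose in 5 of 6 cases in each comparison, with summed levels of 1201 to 1669, 1345 to 2358 and 1586 to 2155 in GFP, HDAC5AA and HDAC5DAD and 541 to 684 in Uninjured. Of the 5 Müller glia genes 1, Glul (glutamine synthetase), fell in each comparison, with log2 fold changes of -0.51, -0.46 and -0.39. Of 5 rod genes limma called 1, 0 and 1 lower in GFP, HDAC5AA and HDAC5DAD, of 5 cone genes 1, 0 and 0 lower, of 3 endothelial genes 0, 1 and 1 higher, and of 3 pigment epithelium genes 0, 0 and 0, with no unadjusted p under 0.05 and no call by edgeR or DESeq2. Several of these single calls did not hold when 1 library was left out. The rod gene Nrl lost its GFP call without any GFP library or Uninjured replicate 1, 3 or 4 (adjusted p = 0.0522 to 0.168), and edgeR called 0 rod genes there. The rod gene Gnat1 lost its HDAC5DAD call without HDAC5DAD replicate 1 or 4 or Uninjured replicate 2 (adjusted p = 0.0536 to 0.0615), and the cone gene Opn1sw its GFP call without GFP replicate 3 or Uninjured replicate 4 (adjusted p = 0.0526 to 0.0949). The endothelial gene Pecam1 lost its HDAC5AA call without HDAC5AA replicate 2, 3 or 4 or Uninjured replicate 2 (adjusted p = 0.0532 to 0.0697). In contrast, the endothelial gene Cldn5 kept its HDAC5DAD call when each library was left out in turn (0.30 to 0.37). Gfap, induced in reactive glia, rose by 1.14, 1.02 and 1.38, while the astrocyte marker Pax2 was not measured. Pdgfra, listed with them, had 0.16, 0.20 and 0.20 and was not called. Of these 2 measured genes, 1 in GFP, 2 in HDAC5AA and 2 in HDAC5DAD had an unadjusted p under 0.05. Of 5 oligodendrocyte genes, limma, edgeR and DESeq2 each called 0 in these comparisons, with an unadjusted p under 0.05 for 2 in GFP, 0 in HDAC5AA and 1 in HDAC5DAD. Of 5 skeletal muscle genes 3 were measured, and limma, edgeR and DESeq2 each called 0 of them, with no unadjusted p under 0.05 and summed levels of 123 to 142 in GFP, 113 to 122 in HDAC5AA, 117 to 138 in HDAC5DAD and 116 to 139 in Uninjured. Their part in the subunits' levels was not tested.

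Finally, the genes with the pattern most like that of 3 members were sought among 13487 genes, by the root mean square difference between log2 levels over the 15 libraries after centring on the Uninjured mean. All 15 libraries share their depth and preparation between genes, so this is a description. The genes nearest to Scn4b were Ctxn3, Irx4, Pou4f2, Tusc5 and Pvalb, of which Pou4f2 is also a ganglion cell marker. They stood at differences of 0.80 to 1.502 on the log2 scale. Such a difference grows with the size of a change and with counting error. Scn4b had among the lowest fold changes of all genes and few reads in crushed libraries. Its differences therefore cannot be set against those of Scn2b and Scn1a below. Ctxn3, a small membrane protein gene, averaged 7.76 ± 1.21 normalized reads in GFP, 9.07 ± 4.69 in HDAC5AA, 10.4 ± 1.39 in HDAC5DAD and 85.6 ± 4.65 in Uninjured. It thus passed the minimum mean of 20 for this search only through Uninjured. Nearest to Scn2b were Sult4a1, a brain sulfotransferase gene, at 0.08, and the neurofilament gene Nefm, also 1 of the 16 ganglion cell markers, at 0.10. Lynx1, a modulator of nicotinic receptors, stood at 0.10. Nefm averaged 609 ± 63.8 in GFP, 624 ± 38.3 in HDAC5AA, 624 ± 55.6 in HDAC5DAD and 975 ± 82.4 in Uninjured. Nearest to Scn1a were Dpp10, an auxiliary subunit of potassium channels, at 0.11, Nell2, a secreted neuronal protein gene, at 0.11 and Vamp1, a synaptic vesicle protein gene, at 0.13. Vamp1 averaged 624.8 ± 30.8 in GFP, 637 ± 76.4 in HDAC5AA, 639 ± 68.2 in HDAC5DAD and 1416 ± 54.4 in Uninjured.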

How the data were processed

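RNA-seq was made from total RNA of whole retina after ribosomal RNA depletion, with single reads of 50 bases per the labels' protocols. STAR, HTSeq, DESeq2 and the build mm10 are listed in the submitters' processing notes. How reads that match several genes were counted, and whether strand was used, is not given in the sources used here, so reads of the similar genes Scn1a, Scn2a, Scn3a, Scn8a and Scn9a may have been shared. The deposited signal values are gene counts divided by size factors by the authors, in 3 tables that each hold 1 crushed group and the same 4 Uninjured libraries. Multiplied back, 100% of values came within 0.01 of whole reads. The authors also deposited a log2 fold change and a p-value per gene, which were used only where the authors are named.

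Here the 15 libraries with a column (of 16 samples; 1 GFP sample, replicate 1, was not analysed here) were joined over the 19495 genes present in all 3 tables and scaled by median-of-ratios size factors. Because the deposited unit is not counts, log2(value + 1) was fitted with limma 3.58.1 in R 4.3.3, with a mean-variance trend and robust estimation. Genes needed a mean of at least 1, the 4 groups shared 1 spread, tests were two-sided, and Benjamini-Hochberg adjustment ran over all genes with a threshold of 0.05. Alternatives were TMM scaling, a pseudocount of 0.1, no minimum, a minimum of 10, a fit within each deposited table, edgeR 4.0.16 and DESeq2 1.42.0 on the recovered reads, the replicate number as a block, leaving out each library, and classes of libraries above and below 1% ribosomal RNA reads. Applying them to partner and marker genes was chosen after seeing the data. Depth limits mainly Scn4b, and intervals cover the spread between libraries. The members and lists were chosen with earlier results of these data known. Some genes of the lists are not reported here, and the counts leave them out. The text names the sodium channel genes reported, up to 4 called genes per list by the largest change in GFP, and the genes nearest in pattern to Scn4b, Scn2b and Scn1a among those with a mean of at least 20.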

Additional observations from a re-analysis of the deposited data

Results flagged for a closer look

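Of 30 groups of 4 libraries of the sodium channel genes, 2 held a library that stood away from the others, with a gap to the nearest library, divided by the group's range, above Dixon's 95% value of 0.829. Chance flags about 1 in 20 groups. Scn1a was highest in HDAC5AA replicate 4, at 1049 normalized reads, where the other 3 libraries of the group lay at 872 to 889 (ratio 0.904). Scn3b was lowest in HDAC5AA replicate 3, at 331, where the others lay at 372 to 374 (ratio 0.949). Leaving out either HDAC5AA library did not change the calls of Scn1a and Scn3b against Uninjured.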

How the results depend on the processing

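Scn4b, Scn1a, Scn2a and Scn2b kept their direction and their call against Uninjured in each of the 16 alternatives in GFP and the 18 each in HDAC5AA and HDAC5DAD. The libraries with under 1% ribosomal RNA reads include no GFP library, so they give no value for GFP, and with 2 libraries per group they have few degrees of freedom. The number of genes called in GFP against Uninjured was 1439 to 2194 when 1 library was left out, the lowest without GFP replicate 3. In the libraries with at least 1% and under 1% ribosomal RNA reads, the counts were 912 and 786 for HDAC5AA against Uninjured and 1753 and 1252 for HDAC5DAD against Uninjured, where fewer samples were fitted. In the class with at least 1%, 1 gene was called in HDAC5AA against GFP, 13 in HDAC5DAD against GFP and 10 in HDAC5AA against HDAC5DAD. DESeq2 called 57 in HDAC5DAD against GFP and 6 in HDAC5AA against HDAC5DAD. That last count was 0 with TMM scaling, a pseudocount of 0.1, a minimum of 10, edgeR, the replicate block and the class under 1%, and 0 to 5 without 1 library, while HDAC5DAD against GFP then gave 0 to 2. The cause of these shifts was not tested.

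No pairing of the libraries by replicate number was detected, which does not exclude one. Over 21 pairs with the same number, deviations from the group means had correlations of -0.117 to 0.179 (median 0.000245). Of 15 libraries, 4 correlated best with their own number. With the replicate number as a block, 1987 genes were called in GFP, 1663 in HDAC5AA and 2557 in HDAC5DAD against Uninjured.

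TMM scaling called Scn3a in HDAC5AA (adjusted p = 0.0418) and Scn8a in HDAC5DAD (adjusted p = 0.0498), and a minimum of 10 called both too (adjusted p = 0.0462 and 0.0478).

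Small log2 fold changes between crushed groups changed sign, and none of them passed a test. In HDAC5AA against GFP, Scn3b was -0.0010 in the class with at least 1% ribosomal RNA reads, and leaving out 1 library gave -0.022 to 0.12 for Scn1a and -0.0089 to 0.11 for Scn2a. In HDAC5DAD against GFP, Scn1a was -0.0086 with edgeR, -0.0086 with the replicate block, -0.0061 in the class with at least 1% and -0.070 to 0.067 without 1 library. Scn3a was -0.013 with edgeR, -0.0048 with DESeq2, -0.0052 with the block, -0.028 in that class and -0.061 to 0.058 without 1 library, and Scn3b was -0.0078 in that class and -0.010 to 0.16 without 1 library. In HDAC5AA against HDAC5DAD, Scn4b was -0.054 with edgeR, -0.057 with DESeq2, -0.19 in the class under 1% and -0.10 to 0.21 without 1 library. Scn2b was 0.0047 and Scn3b 0.0068 in the class with at least 1%, and without 1 library they ran from -0.078 to 0.027 and from -0.11 to 0.057. Scn1a was -0.020 in the class under 1% and -0.015 to 0.073 without 1 library, and Scn8a -0.018 to 0.045 without 1 library.

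Against Uninjured, Scn9a in GFP was -0.0080 with the replicate block and -0.087 to 0.076 without 1 library. In HDAC5AA, Scn7a was 0.087 in the class with at least 1% and -0.084 to 0.070 without 1 library. In HDAC5DAD, Scn9a was 0.0084 in the class under 1%, and without 1 library Scn7a ran from -0.027 to 0.097. The cause was not tested.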
